A study of Mus musculus with 6 samples.

Results

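The genes described here are 10 transcription factors that build or keep the type-2 innate lymphoid cell (ILC2) lineage: Gata3, Rora, Id2, Bcl11b, Tcf7, Gfi1, Ets1, Zbtb16, Tox and Nfil3. Each was found by its symbol in the deposited table, so 10 of 53278 genes were followed. RNA came from ILC2s of visceral adipose tissue of C57BL/6 mice aged 8 weeks that all received 3 intraperitoneal injections of 1 µg recombinant IL-33, an alarmin that activates ILC2s. The cells were sorted as lineage-negative, CD45+, ST2+ and CD117+ and were cultured with IL-2 and IL-7 (10 ng/mL each), and per the labels for 48 h, with either 5 µg/mL DTA-1, an agonistic antibody against the costimulatory receptor GITR, or a rat IgG2b isotype control, and each group has 3 libraries. Descriptions of the study differ on the length of this culture. Both groups were therefore activated by IL-33, and no library of unstimulated cells is part of the comparison. The titles of the control libraries say isotype, while their deposited count columns are headed PBS. The sources used here do not say whether a library was made from 1 mouse or from pooled mice, so the p-values measure the spread between these libraries, which may be technical.

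ILCs arise from lymphoid progenitors through a sequence of transcription factors. Nfil3 and Tcf7 (TCF-1) act in the early progenitors, Tox and Ets1 support the step to committed precursors, and Id2 sequesters the E proteins that would otherwise drive T and B cell fates. Zbtb16 (PLZF) marks a committed ILC precursor and is switched off when that cell matures. GATA3 and RORα then specify ILC2s, while Gfi1 and Bcl11b keep the mature cell from taking on ILC3 features. GATA3 also binds the type 2 cytokine genes, which ties the identity of the cell to its effector output.

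Id2 and Gata3 were the most abundant of the 10 factors in these cells. For these 2 genes the RefSeq promoter window is shown, to give the sequence context of the most expressed members. The windows run from 250 bases before to 50 bases after a RefSeq start on GRCm38, 5′ to 3′ on the minus strand. They lie at chr2:9878551-9878850 for Gata3 and chr12:25096043-25096342 for Id2. Both starts lie inside the gene spans given below, downstream of the outermost annotated start. Capitals mark matches to the E-box, the CANNTG letters that E proteins bind.
Gata3: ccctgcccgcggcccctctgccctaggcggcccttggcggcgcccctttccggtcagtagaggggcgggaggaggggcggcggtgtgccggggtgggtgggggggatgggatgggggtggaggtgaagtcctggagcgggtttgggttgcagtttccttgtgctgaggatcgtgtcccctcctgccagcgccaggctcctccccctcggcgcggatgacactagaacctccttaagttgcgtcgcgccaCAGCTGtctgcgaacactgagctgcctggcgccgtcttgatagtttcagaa
Id2: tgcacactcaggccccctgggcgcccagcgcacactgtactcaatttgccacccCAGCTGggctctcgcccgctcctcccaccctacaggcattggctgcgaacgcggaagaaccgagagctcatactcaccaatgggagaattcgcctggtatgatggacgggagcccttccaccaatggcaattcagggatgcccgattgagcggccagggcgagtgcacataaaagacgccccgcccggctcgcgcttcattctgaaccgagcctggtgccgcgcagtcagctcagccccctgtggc
Each window held 1 E-box, beginning at position −1 from the start in Gata3 and at −196 in Id2, and 72.3% of all 32851 windows hold at least 1. Windows were found for 7 of the 10 members, 9 in all since Gfi1 and Tcf7 have 2 each, and the E-box was in 7 of the 9. The hexamer AGGTCA of ROR elements was found, on either strand, in 2 of the 9 windows (1 each of Nfil3 and Tcf7) against 16.3% of all windows. The GATA letters AGATAA were in 0 of 9 against 11.2%. Other GATA letters, such as the TGATAG that the Gata3 window shown here holds, were not counted. The NF-κB letters, GGG and CC with any 5 bases between them, were in 3 of 9 against 50.8%, and TTANGTAA, read by NFIL3 and its relatives, in 0 of 9 against 2.32%. A match describes these letters and says nothing of binding.

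The total count was 30569351 to 35131329 per library. The genes that the sort used were present in every library: Ptprc (CD45) had 638 to 781 normalized counts, Il1rl1 (ST2) 1021 to 1285 and Kit (CD117) 75.7 to 129, where normalized counts are CPM, counts scaled to a common library size, after TMM normalization. Several members are also T cell factors, and Cd8a was at 0 in all libraries, Trac was between 0.368 and 1.76 and Cd3e between 2.34 and 3.72 normalized counts, while Trbc2 had 139 to 196. The summed level of the 12 T cell genes was 271 to 310 under isotype control and 243 to 300 under DTA-1. That is more than Trbc2, Trac and Cd3e together, so other genes of the list, not named here, were also read. Of 6 B cell genes Ms4a1 and Pax5 were at 0, and of 6 NK cell and ILC1 genes Ncr1 and Klrb1c were at 0. The 8 myeloid genes summed to 1.76 to 6.02. The 10 stromal genes summed to 20.6 to 30.6 under isotype control and 10.8 to 19.2 under DTA-1, most of it Pecam1, and their part in the results was not tested. Of these stromal genes 5 were tested, all with lower means under DTA-1 and 3 at an unadjusted p under 0.05. Of the T cell, B cell, myeloid and NK cell or ILC1 genes 9, 2, 3 and 2 were tested, with 0 at an unadjusted p under 0.05. The 8 genes of an ILC2 marker list all had lower means under DTA-1, where 51.9% of all genes tested were lower. This list holds the sort genes together with others that the sort did not use, Gata3 and Icos among them. The median log2 fold change of the list was −0.08, and Icos was the 1 at an unadjusted p under 0.05. The library labelled DTA-1 replicate 1 lay closer to the isotype control libraries (chi-square per degree of freedom 10.1 to 12.0) than to DTA-1 replicates 2 and 3 (29.1 and 30.6), so the comparisons are also given without it. That fit keeps only DTA-1 replicates 2 and 3. Leaving out the DTA-1 library nearest the controls favours larger group differences, so the p-values and calls of that fit are descriptive only. In 7 of the 9 tested members the value of DTA-1 replicate 1 fell inside the range of the isotype control libraries. The share over all genes was not counted, so this number has no background to be read against.

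To see which factors these cells carried most of, levels were compared per kilobase of exon, as the mean over the 6 libraries. Id2 led with 769 normalized counts per kb (range 691 to 875), followed by Gata3 with 415 (383 to 431), and they ranked 32 and 85 among 14065 tested genes with a known exon length. Ets1 (42.8, range 39.2 to 45.6) and Rora (31.7, range 30.7 to 32.5) came next, 9.69-fold or more below Gata3. The first 4 ranges did not overlap, so this order held in each of the 6 libraries. It also rests on the exon length, taken over all annotated transcripts of a gene. Before division by length Rora had 402 to 425 normalized counts and Ets1 333 to 387. Nfil3 (24.6), Gfi1 (23.4) and Bcl11b (23.2) did not differ beyond their spread, since their ranges overlapped and Nfil3 was above Gfi1 in 4 libraries and Gfi1 above Bcl11b in 2. Tox (4.11, range 3.37 to 4.82) and Tcf7 (2.31, range 1.34 to 3.16) were far below them. Gata3 stood above 99.4% of the genes tested on this scale and Tcf7 above 37.8%.

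The last of the 10, Zbtb16 (chromosome 9, 48654297 to 48836222 on GRCm38), was at the edge of detection. No isotype control library had a read of it (0 counts in each), and DTA-1 replicates 1, 2 and 3 had 4, 0 and 5 counts. A count of 0 allows up to 3 counts, or 0.0854 to 0.0981 CPM at these depths and for counting error only, so the libraries with reads were just above that limit. Zbtb16 did not pass the filter on low counts, so 9 of the 10 members were tested and no fold change is given for it.

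**Figure D1:**
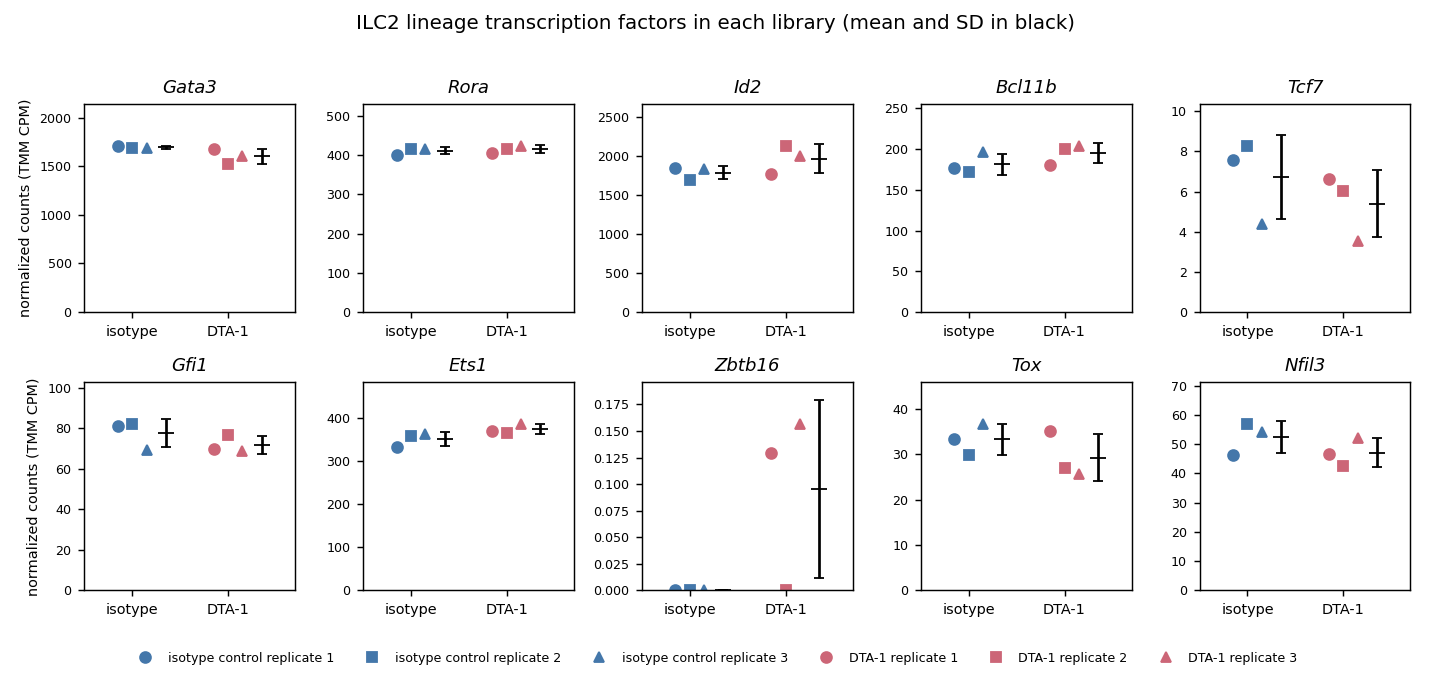
Normalized counts (CPM after TMM, linear axes from 0) of the 10 factors in each library, with isotype control in blue, DTA-1 in red and the mean with SD of the 3 libraries in black. Gata3 under DTA-1 lies at 1523 to 1677 against 1687 to 1715 under isotype control, Ets1 at 365 to 387 against 333 to 362, and the groups overlap in the other 8 panels.

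The comparison of DTA-1 with isotype control asks whether costimulation through GITR moved the lineage factors of activated ILC2s. None of the 9 tested members was differentially expressed by edgeR (0 genes at an adjusted p under 0.05 and 1.5-fold, and 0 members at an unadjusted p under 0.05). Neither DESeq2 nor limma called a member either. Of all 14361 genes, 0% passed the adjusted threshold and 7.21% the unadjusted one, so the members' counts are at or under the background. Of the members 4 had a higher and 5 a lower mean with DTA-1, and 51.9% of all genes tested were lower. The median log2 fold change of the members was −0.08 (range −0.32 to 0.14), beside −0.01 over all genes tested. In bulk RNA fewer cells of a type and less RNA per cell cannot be told apart. Positions below are on GRCm38 (mm10), from the deposited table with 1 base taken off its end column, which then is the annotated end.

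Gata3, the zinc finger factor that defines the ILC2 fate (chromosome 2, 9857078 to 9890034), had 1715, 1687 and 1687 normalized counts in replicates 1, 2 and 3 of isotype control and 1677, 1523 and 1606 in replicates 1, 2 and 3 of DTA-1. Each DTA-1 library was lower than each isotype control library, although the gap between the nearest libraries was small. The means were 1696 ± 15.8 and 1602 ± 76.8 (SD, n = 3 each). The log2 fold change was −0.08 (standard error, SE, 0.06, with a 95% confidence interval of −0.21 to 0.05, adjusted p by edgeR = 0.789). Without the library labelled DTA-1 replicate 1 it was −0.12 (adjusted p by edgeR = 0.312, 0.312 to 0.999 across the alternatives), and without DTA-1 replicate 2 it was −0.04. Antisense and overlapping genes at the locus held at most 0.217% as many counts as Gata3 each.

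Id2, the inhibitor of E proteins that all ILCs need (chromosome 12, 25093799 to 25097140), had a higher mean with DTA-1. It had 1845, 1685 and 1826 normalized counts under isotype control and 1764, 2132 and 1993 under DTA-1. Replicates 2 and 3 of DTA-1 were above every isotype control library and replicate 1 was inside their range. The means were 1785 ± 87.6 and 1963 ± 186 (SD, n = 3 each), and the log2 fold change was 0.14 (SE 0.08, interval −0.03 to 0.30, adjusted p by edgeR = 0.738). With DTA-1 replicate 1 left out it came to 0.21 with an unadjusted p of 0.00474. It remained short of the threshold after adjustment (adjusted p by edgeR = 0.127), the smallest value that any member had under any alternative. Dropping DTA-1 replicate 2 gave 0.08 for Id2.

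Rora, which encodes the nuclear receptor RORα required for ILC2 development (chromosome 9, 68653786 to 69388246), was the steadiest member. Its 6 values ran from 402 to 425 normalized counts, with means of 412 ± 8.79 under isotype control and 416 ± 9.76 under DTA-1 (SD, n = 3 each). The coefficient of variation over the 6 libraries was 2.07%, against a median of 12.7% over all genes tested, and 0.376% of the genes tested had a smaller one. This background holds genes of all levels, down to those just past the filter, and was not matched to the level of Rora. The log2 fold change was 0.01 (SE 0.06, interval −0.11 to 0.14, adjusted p by edgeR = 0.972), and its sign turned with the scaling (−0.02 with total counts).

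Ets1, a factor of early lymphoid and ILC2 development (chromosome 9, 32636221 to 32757820), had 333, 358 and 362 normalized counts under isotype control and 371, 365 and 387 under DTA-1. Every DTA-1 library was above every isotype control library. The log2 fold change was nevertheless small, 0.09 (SE 0.06, interval −0.04 to 0.23, adjusted p by edgeR = 0.766), and the groups overlapped when libraries were scaled by total counts. Bcl11b, which keeps mature ILC2s from ILC3 features (chromosome 12, 107910403 to 108003602), had 176, 172 and 196 normalized counts under isotype control and 181, 201 and 204 under DTA-1. The ranges overlapped, with a log2 fold change of 0.11 (SE 0.07, interval −0.06 to 0.27, adjusted p by edgeR = 0.784). For Bcl11b it was 0.07 without isotype control replicate 2 and 0.17 without isotype control replicate 3, and for Ets1 0.06 without isotype control replicate 1.

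The remaining 4 tested factors had lower means with DTA-1. Gfi1, a zinc finger repressor that sustains the ILC2 programme (chromosome 5, 107716657 to 107726036), had 81.0, 82.2 and 69.5 normalized counts under isotype control and 69.6, 76.8 and 68.9 under DTA-1. Isotype control replicate 3 lay among the DTA-1 libraries, and the log2 fold change was −0.11 (SE 0.09, interval −0.31 to 0.08, adjusted p by edgeR = 0.821). For Gfi1 it was −0.07 without isotype control replicate 2 and −0.19 without isotype control replicate 3. A gene on the opposite strand, A430072P03Rik, had 4.15% as many counts as Gfi1, and whether strand was used in counting is not given in the sources used here. Nfil3, the bZIP factor of the earliest ILC progenitors (chromosome 13, 52967209 to 52981073), had 46.2, 56.9 and 54.2 normalized counts under isotype control and 46.7, 42.3 and 52.2 under DTA-1. The groups overlapped, with a log2 fold change of −0.15 (SE 0.11, interval −0.40 to 0.09, adjusted p by edgeR = 0.789). For Nfil3 it was −0.08 without DTA-1 replicate 2, −0.09 without isotype control replicate 2, and −0.23 without DTA-1 replicate 3 or without isotype control replicate 1.

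Tox, an HMG box factor of ILC progenitors (chromosome 4, 6686353 to 6991557), had 33.3, 29.9 and 36.7 normalized counts under isotype control and 35.1, 27.0 and 25.7 under DTA-1. The DTA-1 group split, since replicate 1 was among the isotype control libraries and replicates 2 and 3 were below all of them. The log2 fold change was −0.19 (SE 0.14, interval −0.49 to 0.11, adjusted p by edgeR = 0.795), and −0.34 without DTA-1 replicate 1 (adjusted p by edgeR = 0.237, 0.237 to 0.999 across the alternatives). It was −0.10 without DTA-1 replicate 3 and −0.11 without isotype control replicate 3. Tcf7 (chromosome 11, 52252371 to 52283014), which encodes TCF-1, had 268, 291 and 154 counts under isotype control and 205, 189 and 112 under DTA-1, or 7.57, 8.29 and 4.36 against 6.63, 6.05 and 3.51 normalized counts. Replicate 3 was the lowest library of both groups. The means of 6.74 ± 2.09 and 5.40 ± 1.66 (SD, n = 3 each) differed by less than either SD. The log2 fold change of Tcf7 was −0.32 (SE 0.30, interval −0.98 to 0.34, adjusted p by edgeR = 0.852). It was −0.09 without DTA-1 replicate 3, −0.15 without isotype control replicate 2, −0.50 without DTA-1 replicate 1 and −0.56 without isotype control replicate 3, so its size rests on these libraries.

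**Figure D2:**
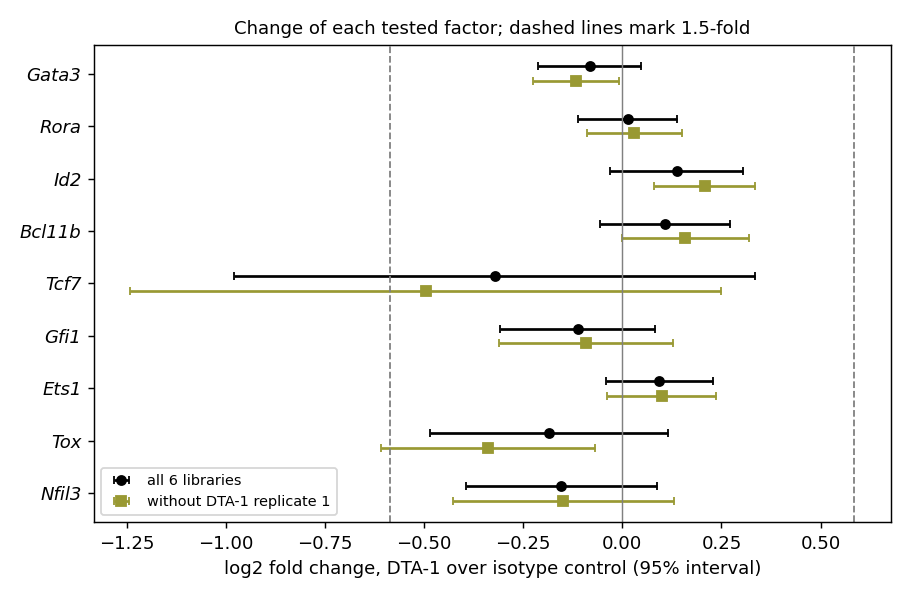
Log2 fold change of DTA-1 over isotype control with its 95% confidence interval for the 9 tested factors, with all 6 libraries (black circles) and without DTA-1 replicate 1 (olive squares); dashed lines mark a 1.5-fold change in either direction. With all libraries every interval crosses 0, and the interval of Tcf7, −0.98 to 0.34, alone reaches past 1.5-fold.

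A missed threshold does not show that a gene stayed level, so the intervals were read against a 1.5-fold change. For 8 of the 9 tested members the whole 95% interval lay inside 1.5-fold, and Tcf7 was the exception. For Gata3 the interval corresponds to 0.863-fold to 1.03-fold, for Rora to 0.926-fold to 1.10-fold and for Id2 to 0.979-fold to 1.24-fold. Over all genes tested 58.9% had such an interval, and 96.5% of the 7229 genes with a mean of at least 20 normalized counts, which the same 8 members had. That limit was chosen after the values were seen, and 8 of 8 is near this background, so the count is not a result about the lineage factors. Without DTA-1 replicate 1 the count was 7, because the interval of Tox then reached −0.61. Beside the values already given, the log2 fold change without that library was 0.03 for Rora, 0.10 for Ets1, 0.16 for Bcl11b, −0.09 for Gfi1, −0.15 for Nfil3 and −0.50 for Tcf7, and the adjusted p by edgeR of these 6 lay between 0.363 and 0.862.

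The groups did not overlap in 2 of the 9 members, Ets1 being higher and Gata3 lower with DTA-1, where 5.26% of all genes tested were higher and 6.03% lower in this way. Without DTA-1 replicate 1 the count rose to 5, with Id2, Bcl11b and Ets1 higher and Gata3 and Tox lower, while 15.4% and 15.9% of all genes then separated upward and downward. Gata3, Id2 and Tox had an unadjusted p under 0.05 without that library (0.0360, 0.00474 and 0.0187), which is 3 of 9 against 14.0% of all genes. By the adjusted p and 1.5-fold 0 members were differentially expressed there, against 0.744% of all genes tested. The number of members without overlap was also 5 without isotype control replicate 3, with Bcl11b and Ets1 higher and Gata3, Tcf7 and Gfi1 lower, and 3 without isotype control replicate 1, where Nfil3 joined Gata3 and Ets1. Of all genes tested 19.0% separated in either direction without isotype control replicate 3 and 21.2% without isotype control replicate 1.

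Many of these factors belong to families whose members can share target sites, so each was set beside its paralogs, per kb of exon. In 5 families the ILC factor held nearly all of the summed level. Gata3 made up 99.8% of the summed level of Gata1, Gata2 and Gata3, Rora 98.9% of that of the 3 ROR genes, Id2 96.2% of that of Id1 to Id4, and Bcl11b at least 99.9% of that of Bcl11a and Bcl11b. Gfi1b and Id4 were at 0 in all libraries, while Id3 was read at 27.3 normalized counts per kb (range 18.4 to 32.9). The share of Id2 was 95.6 ± 0.231% under isotype control and 96.7 ± 1.17% under DTA-1 (SD, n = 3 each).

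In the other families at least 1 paralog came near the ILC factor or stood above it. Tcf7 held 29.2% of its family's summed level, beside 38.4% for Lef1 and 32.4% for Tcf7l1. Tox held 7.41%, where Tox2 held 59.0% and Tox4 33.5%. Hlf, a PAR bZIP activator that reads the same DNA element as the repressor NFIL3, stood at 31.0 normalized counts per kb (range 28.0 to 33.6) against 24.6 for Nfil3. Fli1 stood at 36.5 per kb beside 42.8 for Ets1. Of the 3 BTB zinc finger genes compared, Zbtb7a stood at 15.6 and Zbtb7b at 3.56 per kb, with Zbtb16 at 0.00902.

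**Figure D3:**
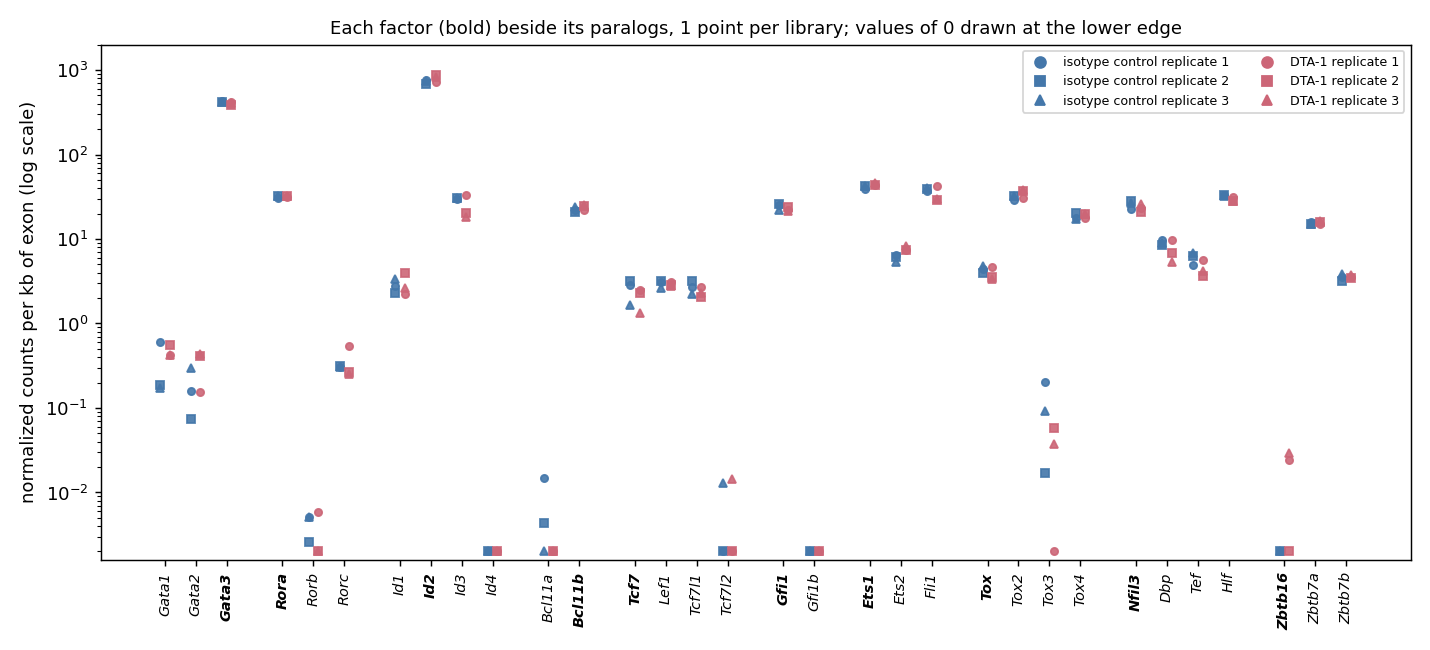
Normalized counts per kb of exon (log axis) of each factor, in bold, and its paralogs, with 1 point per library in blue for isotype control and red for DTA-1; values of 0 are drawn at the lower edge. Id2 and Gata3 stand at 769 and 415 per kb with their paralogs far below, whereas Lef1, Tox2, Fli1 and Hlf are close to or above Tcf7, Tox, Ets1 and Nfil3.

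Of 22 paralogs 16 passed the filter on low counts. None was differentially expressed by edgeR (0 genes), and 1 was higher and 2 were lower at an unadjusted p under 0.05, which is 3 of 16 beside the 7.21% of all genes. Their median log2 fold change was 0.04. Ets2, a relative of Ets1, had 37.2, 35.4 and 30.9 normalized counts under isotype control and 42.4, 43.1 and 47.6 under DTA-1, with every DTA-1 library higher (log2 fold change 0.36, SE 0.10, adjusted p by edgeR = 0.626). Both lower genes were PAR bZIP factors that share the DNA element of NFIL3. Hlf was at 213 to 225 under isotype control and 187 to 210 under DTA-1 (log2 fold change −0.17, SE 0.07, adjusted p by edgeR = 0.657), and Tef was at 39.0 to 53.0 and 28.5 to 44.4 (−0.42, SE 0.16, adjusted p by edgeR = 0.655).

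Id3, another inhibitor of E proteins, had 53.5, 55.4 and 55.5 normalized counts under isotype control and 59.0, 36.7 and 32.9 under DTA-1. Replicates 2 and 3 of DTA-1 lay far below the other 4 libraries, which lay together. With all libraries the log2 fold change of Id3 was −0.35 (SE 0.18, adjusted p by edgeR = 0.722). Without DTA-1 replicate 1 it was −0.65 (adjusted p by edgeR = 0.00960), and Id3 was then the 1 paralog of 17 tested to be differentially expressed. That library was left out for its likeness to the controls, so the call is descriptive only. Fli1 also had an adjusted p under 0.05 in that comparison (0.0200), with a log2 fold change of −0.40 that is short of 1.5-fold. Its values were 130, 137 and 140 under isotype control and 150, 102 and 104 under DTA-1.

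The partners of these factors were followed next: the GATA3 cofactor Zfpm1 (FOG-1), the E proteins Tcf3, Tcf4 and Tcf12 that Id2 binds, β-catenin and the Tle corepressors of TCF-1, the Gfi1 corepressors Kdm1a and Rcor1, the Runx factors with Cbfb, and histone deacetylases among others. All 22 were tested and 20 had an interval inside 1.5-fold. None was differentially expressed by edgeR (0 genes), and 1 was higher and 0 were lower at an unadjusted p under 0.05. The median log2 fold change of the partners was −0.03, and 0 of them were differentially expressed without DTA-1 replicate 1.

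Of 12 genes of the type 2 programme that depends on GATA3, 4 were higher and 1 was lower with DTA-1 at an unadjusted p under 0.05, beside the 7.21% of all genes, and 0 were differentially expressed by edgeR. The list was chosen with earlier results of these data known, among them higher Il5 and Il13, so the count is no test of it. Il2ra, the high-affinity IL-2 receptor chain, had 1951, 2239 and 2138 normalized counts under isotype control and 2241, 2739 and 2808 under DTA-1, and Il5 likewise did not overlap between the groups. The log2 fold change of Il2ra was 0.30 (SE 0.09, adjusted p by edgeR = 0.626). Areg, an EGF family ligand of tissue repair, had 193, 193 and 193 normalized counts under isotype control and 187, 334 and 316 under DTA-1, with a log2 fold change of 0.53 (SE 0.17, adjusted p by edgeR = 0.626). The fourth was Il13, named here after its values were seen, at 0.36 (SE 0.13, adjusted p by edgeR = 0.632). Icos, a costimulatory receptor, was the gene that was lower, with 156, 173 and 157 normalized counts under isotype control and 156, 98.9 and 98.3 under DTA-1 (log2 fold change −0.46, SE 0.15, adjusted p by edgeR = 0.626).

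In Areg and Icos the library labelled DTA-1 replicate 1 stood with the isotype control libraries or just beside them. Without it the log2 fold change was 0.75 for Areg and −0.71 for Icos, and Areg, Il5 and Icos were differentially expressed (3 of 12 genes), beside the 0.744% of all genes tested. These calls are descriptive only, since that library was left out for its likeness to the controls. Gata3 itself was at −0.12 in the same comparison. The genes Il1rl1, Klrg1 and Il7r, which mark the cell, were at −0.09, −0.04 and −0.03 with all libraries. The 12 genes spread from −0.46 to 0.60 on the log2 scale, and had a median of −0.06 beside the −0.01 of all genes tested.

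Among 18 other transcription factors described in ILC2s, 0 were differentially expressed by edgeR and 1 had an unadjusted p under 0.05. Bhlhe40, a basic helix-loop-helix factor of cytokine-producing lymphocytes, had 237, 266 and 254 normalized counts under isotype control and 261, 455 and 435 under DTA-1. Its log2 fold change was 0.61 (SE 0.17, adjusted p by edgeR = 0.626), and 0.82 without DTA-1 replicate 1, where Bhlhe40 was the 1 gene of the list to be differentially expressed. That call is descriptive only, for the same reason. The median of the list was 0.04.

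**Figure D4:**
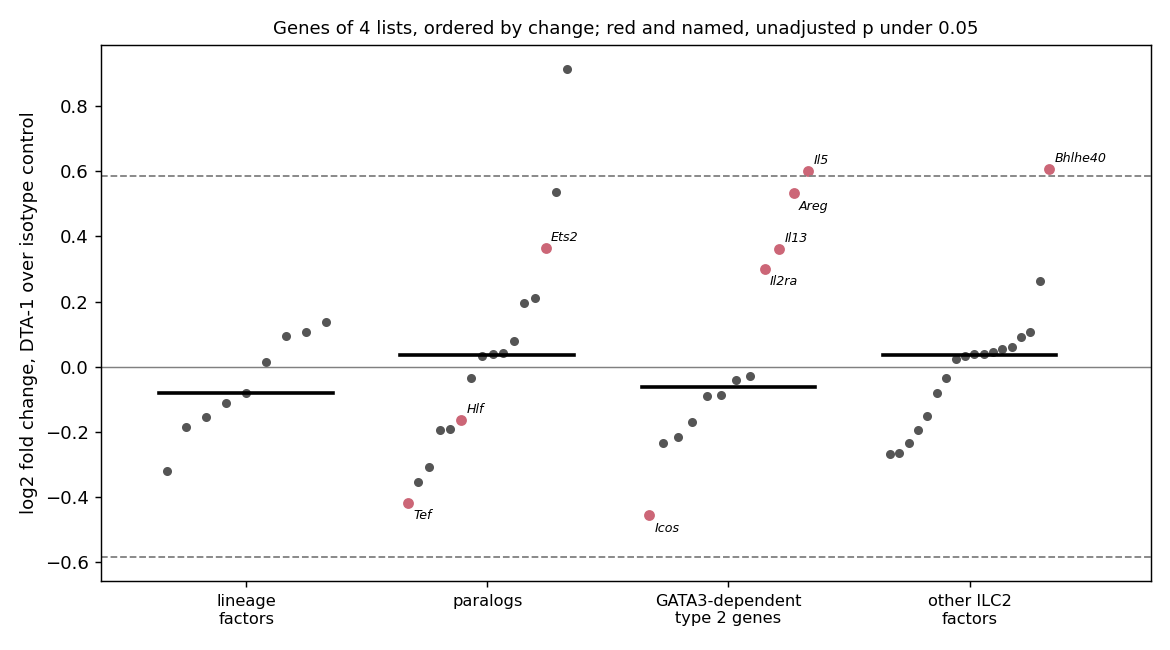
Log2 fold change of DTA-1 over isotype control for the tested lineage factors, paralogs, GATA3-dependent genes and other ILC2 factors, ordered within each list, with the median as a black bar and genes at an unadjusted p under 0.05 in red with their names; dashed lines mark 1.5-fold. The 9 lineage factors lie between −0.32 and 0.14, while the genes that depend on GATA3 run from −0.46 for Icos to 0.60 for Il5.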

How the data were processed

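RNA of sorted mouse ILC2s was sequenced in 6 libraries, 3 with isotype control and 3 with DTA-1. The authors deposited expected counts per gene (estimated, 77.4 to 78.2% whole numbers per library, not normalized). The submitters' processing notes name bcl2fastq 2.17.1.14, STAR 2.5.3a, Partek and mm10; the annotation release and strand setting are not given in the sources used here. The counts were rounded, and the total was 30569351 to 35131329 per library, where 3 counts correspond to 0.0854 to 0.0981 CPM.

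Genes were filtered by filterByExpr, which left 14361, and compared by edgeR's quasi-likelihood F test with TMM scaling (R 4.3.3, edgeR 4.0.16). Differential expression was an adjusted p (Benjamini-Hochberg over all genes tested) under 0.05 with 1.5-fold. Normalized counts are CPM after TMM. Exon lengths came from GENCODE M21 on GRCm38, in which 49599 of the 53278 genes were matched by symbol and place, and promoter windows came from RefSeq on GRCm38.p6. Levels of different genes were compared only per kb.

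The 10 lineage factors and the lists (paralogs, partners, GATA3-dependent genes, other ILC2 transcription factors, ILC2 marker genes and markers of T, B, myeloid, NK and stromal cells) were chosen with earlier results of these data known, from textbook roles. All 10 factors, the paralogs that passed the filter, up to 4 genes per other list with the smallest unadjusted p under 0.05, and genes differentially expressed with or without 1 library were eligible to be named, as were the defining marker genes; some genes that the rule allows are not reported here. The fit was tested on simulated data over 14361 genes. It recovered 80 of 100 genes changed 2-fold and 29 of 100 changed 1.5-fold, with 7 false calls. Whether these numbers carry over to the measured libraries, with DTA-1 replicate 1 near the controls, or to the calls made here was not tested. Alternatives were DESeq2 1.42.0 (Wald test, and its size factors in edgeR), limma-trend 3.58.1, total-count scaling, no filter, at least 10 counts in every library, a replicate block, and leaving out each library.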

Additional observations from a re-analysis of the deposited data

How the results depend on the processing

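None of the 9 tested lineage factors was differentially expressed under any alternative. Of 117 alternative log2 fold changes of the members 3 had the other sign, all for Rora, at −0.024 with total counts, −0.00072 without isotype control replicate 1 and −0.0028 without DTA-1 replicate 3 (Rora reached 0.030 without DTA-1 replicate 1). Members whose groups did not overlap numbered 2, beside 11.3% of all genes. They numbered 1 with total counts, beside 11.9%, a scaling that moved the median of all genes by −0.04. With 1 library left out they numbered 2 to 5, beside 18.6 to 31.2% of all genes. Over all genes 0 were differentially expressed by edgeR, 1036 having an unadjusted p under 0.05. The count was 25 by DESeq2, 2 with no filter, 1 with a replicate block, 0 to 111 with 1 library left out and 337 at an unadjusted p under 0.05 with 1.5-fold. Libraries of the same replicate number did not deviate together (correlations of deviations −0.007, −0.003 and 0.015), though so few libraries cannot exclude a pairing. The replicate block changed no call among the members. With 1 library left out, 0 to 1 paralogs, 0 to 3 GATA3-dependent genes, 0 to 1 other transcription factors, 0 to 1 ILC2 marker genes and 0 to 3 stromal genes were differentially expressed, the higher count being without DTA-1 replicate 1. Stromal genes numbered 2 by DESeq2 and 1 with no filter. The cause of these changes was not tested. Depth limits Zbtb16, which had 0 to 5 counts per library. Tcf7 had 112 to 291 counts and a coefficient of variation of 30.3% over the libraries.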
